A study of Triticum aestivum with 3 samples.

Results

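The genes described here are hub genes of gene-to-gene loops (GGLs) on wheat chromosome 1A, meaning genes that occur in 4 or more unique gene pairs of the study's GGL table. A GGL is a contact between a pair of 20 kb genomic bins, seen in Hi-C data, in which each bin holds a gene. The supplied rows of the table for chromosome 1A numbered 1508 and held 1238 interactions and 1200 unique pairs between 1645 genes. Of these genes 41 (2.49%) were hubs, 1093 occurred in 1 pair, 405 in 2 pairs and 106 in 3 pairs. Among the hubs, 31 occurred in 4 pairs, 7 in 5 pairs, 1 in 6 pairs and 2 in 7 pairs, and together they took part in 162 pairs (13.5%).

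Expression came from RNA-seq of Chinese Spring shoots in 3 biological replicates, this hexaploid cultivar being the one behind the wheat reference genome. All 3 libraries were of wild-type seedlings, aged 12 days by one label and 14 days by another. The libraries held 75465873, 76337649 and 67470696 estimated counts in replicates 1, 2 and 3. Across the hub genes, which are not independent replicates, Pearson's r of log2(TPM + 1) was 0.987 between replicates 1 and 2, 0.947 between 1 and 3 and 0.939 between 2 and 3. TPM is a transcript level relative to its whole library and corrected for transcript length, and a gene was taken as expressed if its median over the 3 replicates exceeded 0 TPM. Since every library is of the same condition, the comparison is between hub genes and genes in 1 pair, with each replicate also computed alone. With 3 replicates the exact sign-flip permutation test cannot give less than p = 0.25.

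As background, contacts between genes bring distant stretches of a chromosome close together in the nucleus, and a gene with many contacts may sit in a neighbourhood that several genes share. H3K36me3 is laid down along transcribed gene bodies, H3K9ac and H3K4me3 mark active promoters, and RNA polymerase II (RNAPII) transcribes protein-coding genes. H3K27me3 is the mark of Polycomb repression and typically covers genes that are silent in a given tissue. The paper took its histone mark data from an earlier wheat study, so histone marks and TPM do not come from the same samples. Genes are given by their IWGSC identifiers, in which LC marks a low-confidence gene model, and positions are those of IWGSC RefSeq v1.0.

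The hub genes lay in 2 stretches of the chromosome. The first held 11 of them, starting between 22.6 and 71.7 Mb, and the second held 30, starting between 450 and 578 Mb. No hub lay between these stretches, where 368 of the genes in 1 pair (33.7%) were found. The region from 540 to 578 Mb alone held 22 hubs (53.7%), against 180 genes in 1 pair (16.5%). These bounds were drawn from the hubs' own positions, so the counts are a description. High-confidence models made up 27 of the hubs and low-confidence models 14 (34.1%), against 26.8% low-confidence models among genes in 1 pair. The hubs spanned a median of 2.45 kb (0.144 to 28.1 kb), and genes in 1 pair a median of 2.11 kb. Their longest transcripts had a median of 958 bases, against 1197 bases for genes in 1 pair.

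Every hub reached at least as many separate interactions as it had pairs, and 5 hubs had more. The number of distinct places was smaller. When partner genes within 20 kb of each other were taken as one site, 26 hubs had fewer partner sites than pairs, and 21 of the 41 kept 4 or more sites. TraesCS1A02G393700 (560177974 to 560181992), a hub in 5 pairs, had its partners at 2 sites.

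A smaller share of hub genes than of genes in 1 pair was above 0 TPM. This design cannot bring the difference past p = 0.05 in an exact test. By the median of the replicates, 23 of 41 hubs (56.1%) were above 0 TPM, against 695 of 1093 genes in 1 pair (63.6%), and 63.0% of all 6761 chromosome 1A genes quantified. In replicates 1, 2 and 3 alike 53.7% of the hubs were above 0, against 63.2%, 63.9% and 65.9% of genes in 1 pair. The difference averaged -10.7 ± 1.38 percentage points (SD, n = 3), with the hubs lower in 3 of 3 replicates (exact two-sided sign-flip permutation test, p = 0.25, the smallest possible). Such a test covers the spread between libraries and not that between genes. Without 5 neighbouring hubs at 46 Mb, described below, 23 of 36 hubs were expressed (63.9%), which was 0.302 percentage points above the genes in 1 pair. By single replicates, however, 22 of these 36 hubs (61.1%) were above 0 in each of the 3, still below the genes in 1 pair. These 5 hubs were singled out after their values of 0 had been seen, so leaving them out could only raise the share. Leaving out any other 5 hubs at 0 in all replicates would have raised it equally. The omission therefore cannot assign the difference to this locus. Set against the 559 genes in 1 pair from the same 2 stretches of the chromosome, of which 60.1% were expressed, the full set of hubs was 4.01 points lower. When genes were chosen by 4 or more distinct interactions and set against genes with 1 interaction, the difference was 0.169 points. Among high-confidence models 17 of 27 hubs (63.0%) were expressed, against 68.8% of genes in 1 pair, and among low-confidence models 6 of 14 hubs (42.9%), against 49.5%.

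**Figure D1:**
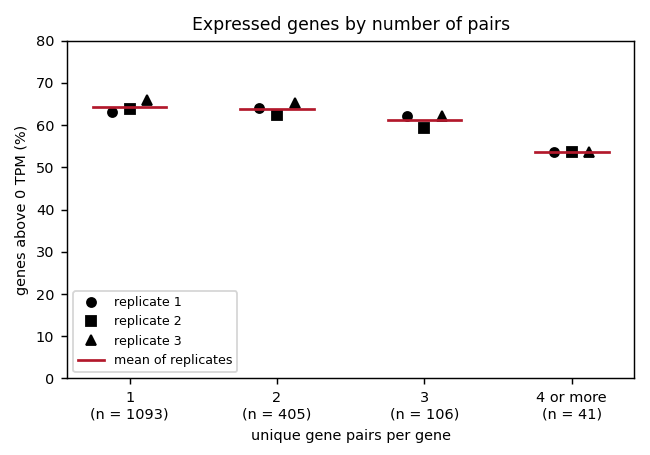
Share of genes above 0 TPM (y axis, %) by the number of unique pairs a gene occurs in (x axis), for each shoot replicate (points) with the mean of the 3 replicates (line). The hub genes sit at 53.7% in each replicate, and the genes in 1, 2 or 3 pairs lie between 59.4% and 65.9%.

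Just outside the threshold, 61.3% of the 106 genes in 3 pairs were expressed, and just inside it 54.8% of the 31 genes in 4 pairs. In the 10 genes with 5 or more pairs the share was 60.0%. The values thus do not fall steadily with the number of pairs.

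The median level of the hubs lay below that of genes in 1 pair in each replicate. A low median was not particular to the hubs. By the median of the replicates it was 0.0508 TPM in the 106 genes in 3 pairs, against 0.0632 TPM in the hubs. The median TPM of the hubs was 0.0632, 0.0507 and 0.0433 in replicates 1, 2 and 3, against 0.127, 0.149 and 0.107 for genes in 1 pair. The log2 ratio of the 2 medians averaged -1.29 ± 0.27 (SD, n = 3) and was below 0 in 3 of 3 replicates (exact two-sided sign-flip permutation test, p = 0.25). Genes in 1 pair from the same 2 stretches had a median of 0.0674 TPM, which left a log2 ratio of -0.09. The part that chromosomal position has in the difference was not tested further. Without the 5 hubs at 46 Mb the log2 ratio was -0.28, but as all 5 were at 0, leaving them out could only raise it. Among expressed genes the medians were 0.688 TPM for hubs and 1.35 TPM for genes in 1 pair. Whole shoots were sampled, so low expression throughout and expression in few cells cannot be told apart.

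Within the hubs the levels ran over more than 3 orders of magnitude, with 18 at 0 in all 3 replicates, 12 above 0 and under 1 TPM, 8 between 1 and 10 TPM and 3 at 10 TPM or more. For the 18 hubs at 0, 3 estimated counts would have given between 0.0235 and 1.20 TPM, the highest value belonging to TraesCS1A02G523200LC with a transcript of 156 bases. These values are a guide and not a limit of detection, since 3 expressed hubs had a median under 3 estimated counts. Low levels could still go unseen in the hubs at 0. The replicates disagreed on whether any transcript was present for 3 of the 41 hubs, TraesCS1A02G291700, TraesCS1A02G559300LC and TraesCS1A02G395800. They disagreed for 116 of 1093 genes in 1 pair and for 1003 of all 6761 chromosome 1A genes, so this is no trait of the hubs. TraesCS1A02G291700 had 0.279, 0 and 0.619 TPM, and TraesCS1A02G395800 had 0, 0.0507 and 0.0433 TPM. Of the 20 hubs above 0 in every replicate, 12 varied more than 2-fold between their lowest and highest replicate. The same count was not made for other genes, so it does not set the hubs apart.

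**Figure D2:**
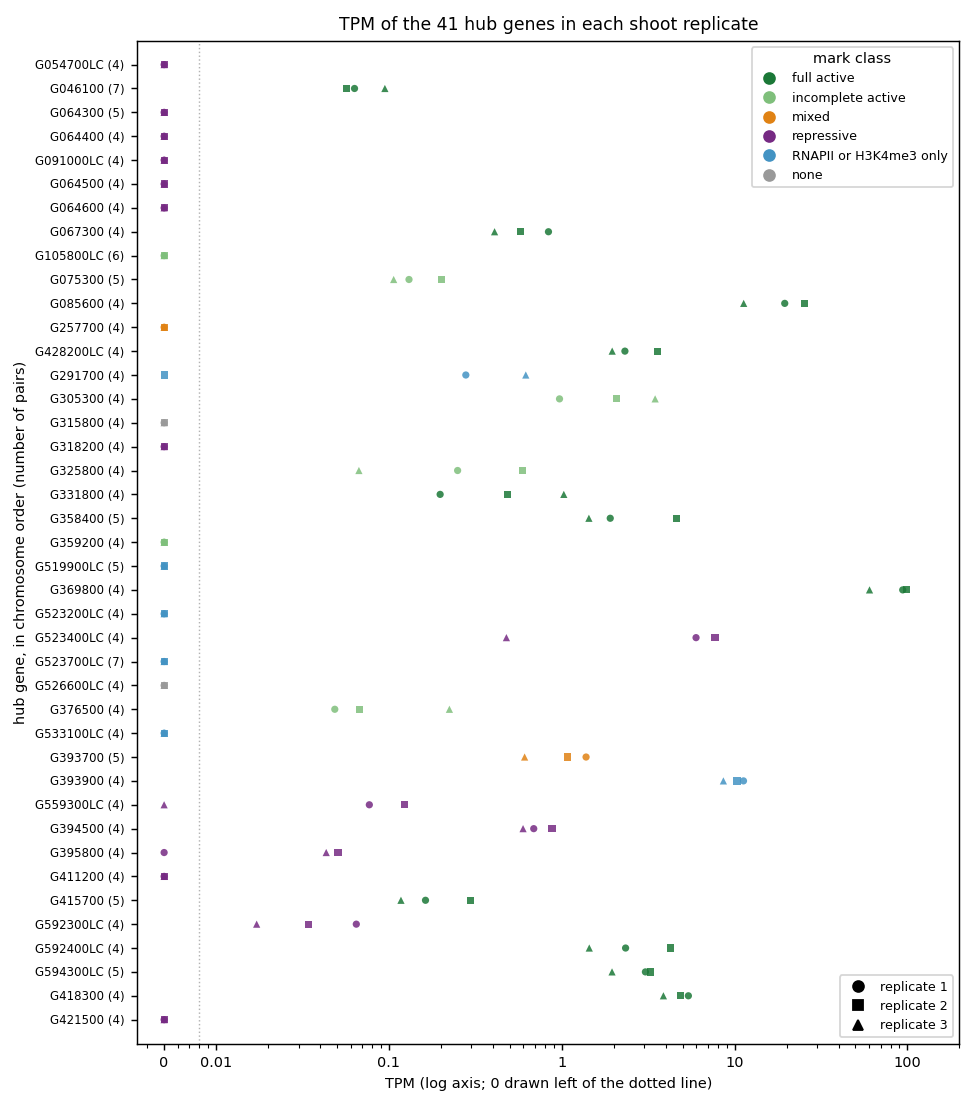
TPM of each hub gene (x axis, log scale, with 0 drawn left of the dotted line) in the 3 replicates (symbols), coloured by mark class. Genes run in chromosome order from top to bottom, named without the prefix TraesCS1A02, with the number of pairs in brackets. 18 hubs are at 0 in every replicate, and TraesCS1A02G369800 is highest at 60.4 to 98.6 TPM.

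The most abundant hub transcript came from TraesCS1A02G369800 (547324343 to 547333822, minus strand), with 94.0, 98.6 and 60.4 TPM in replicates 1, 2 and 3. It rested on a median of 12625 estimated counts and carried H3K36me3, H3K9ac, H3K4me3 and RNAPII without H3K27me3. Its 4 partners ranged from 0 to 30.1 TPM, 2 of them lying over 1 Mb away and at 0. This hub was above each of its partners in every replicate.

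TraesCS1A02G085600 (71689760 to 71695155, plus strand) followed with 19.5, 25.5 and 11.3 TPM. All 4 of its partners were expressed, between 0.0287 and 25.7 TPM. TraesCS1A02G393900 (560248619 to 560249770) had 11.3, 10.3 and 8.62 TPM, although RNAPII was the only one of the 5 features listed for it. The values of the 3 replicates lay close together in this gene (SD 1.34, n = 3).

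TraesCS1A02G523400LC (547687306 to 547687449) had 5.99 and 7.70 TPM in replicates 1 and 2 but 0.478 TPM in replicate 3. With a transcript of 144 bases it rested on 13, 16 and 1 estimated counts, and its TPM is therefore uncertain. TraesCS1A02G418300 (575736809 to 575741899) had 5.40, 4.84 and 3.87 TPM, on a median of 733 estimated counts. By the median none of its 4 partners exceeded 0.00758 TPM, and 2 of them lay 568665 and 568679 kb away.

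The hubs in 6 or 7 pairs were lowly expressed or at 0. TraesCS1A02G046100 (27359181 to 27363332, plus strand), in 7 pairs, carried H3K36me3, H3K9ac, H3K4me3 and RNAPII, yet its TPM was 0.0632, 0.0569 and 0.0947, on a median of 15.6 estimated counts. Of its 7 partners 6 were expressed. The neighbours TraesCS1A02G045700 and TraesCS1A02G045800, 105 and 98.1 kb away, had 24.3 ± 3.42 and 19.3 ± 8.87 TPM (SD, n = 3). TraesCS1A02G062100LC, 13.5 kb away, had 1.51 ± 0.562 TPM, and TraesCS1A02G061600LC had 0.645 ± 0.222 TPM. Its 2 distant partners were TraesCS1A02G138500, 204723 kb away, with 4.07 ± 1.08 TPM, and TraesCS1A02G307400LC, 304680 kb away, with 1.38 ± 0.547 TPM. The remaining partner, TraesCS1A02G045900, was above 0 in replicate 3 alone, at 0.0309 TPM. The hub with full active marks was therefore below all 6 of its expressed partners in every replicate.

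TraesCS1A02G523700LC (547857950 to 547858248), the other hub in 7 pairs, was at 0 in all replicates while 6 of its 7 partners were expressed. Its transcript is 297 bases long, and 3 estimated counts would have given 0.298 TPM. The partners with the highest levels were TraesCS1A02G523500LC at 6.83 ± 2.48 TPM, TraesCS1A02G523400LC at 4.72 ± 3.77 TPM and TraesCS1A02G524400LC at 4.65 ± 1.02 TPM. TraesCS1A02G044800, 522149 kb away, had 2.17 ± 0.954 TPM. TraesCS1A02G370600 and TraesCS1A02G370700 were low, at 0.135 ± 0.102 and 0.0503 ± 0.0260 TPM, and TraesCS1A02G411200 was at 0.

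TraesCS1A02G105800LC (58338831 to 58342618), in 6 pairs, was at 0 in all replicates, and 3 of its 6 partners were expressed. These were TraesCS1A02G075200 with 0.886 ± 0.239 TPM, TraesCS1A02G105300LC with 0.413 ± 0.164 TPM and TraesCS1A02G075400 with 0.146 ± 0.0495 TPM. TraesCS1A02G105400LC, TraesCS1A02G106200LC and TraesCS1A02G106700LC were at 0 in each replicate. All 6 partners lay within 137 kb.

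The 7 hubs in 5 pairs fell in every class of marks described below except the unmarked one. TraesCS1A02G594300LC had 3.05, 3.25 and 1.95 TPM and TraesCS1A02G358400 had 1.91, 4.64 and 1.44 TPM, both with the active marks and without H3K27me3. TraesCS1A02G415700 carried the same marks and had 0.163, 0.297 and 0.117 TPM. TraesCS1A02G393700, with H3K27me3 as well as H3K9ac, H3K4me3 and RNAPII, had 1.38, 1.08 and 0.610 TPM. TraesCS1A02G064300 and TraesCS1A02G519900LC were at 0 in all 3 replicates. TraesCS1A02G075300 had 0.131, 0.202 and 0.106 TPM, exactly the values of its partner TraesCS1A02G075400 in each replicate. Both have transcripts of 798 bases and 6.5, 9.5 and 5 estimated counts, so their values are uncertain, and whether the same reads were divided between them was not tested.

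Marks were compared as counts, because peaks were listed once per mark and have no replicate spread. A gene was given a mark where any interval listed for it carried it. H3K36me3 was found on 11 of 41 hubs (26.8%), against 510 of 1093 genes in 1 pair (46.7%). H3K27me3 was found on 16 hubs (39.0%), against 287 genes in 1 pair (26.3%). The other features differed less, with H3K4me3 on 61.0% of hubs and 67.3% of genes in 1 pair, H3K9ac on 46.3% and 50.9%, and RNAPII on 65.9% and 65.8%. The likeness in RNAPII depended on the hubs taken. RNAPII was on 9 of the 10 hubs with 5 or more pairs. Its difference was 9.22 percentage points without the 5 hubs at 46 Mb, which all lacked it.

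The genes were then sorted into classes of marks. Full active genes carried H3K36me3, H3K9ac and RNAPII without H3K27me3, and repressive genes carried H3K27me3 without H3K36me3 or H3K9ac. The full active class held 11 hubs (26.8%), against 38.6% of genes in 1 pair, and the repressive class held 14 hubs (34.1%), against 21.5%. Another 6 hubs carried H3K36me3 or H3K9ac without the full set (incomplete active), 6 had RNAPII or H3K4me3 alone, 2 combined H3K27me3 with H3K9ac (mixed) and 2 carried none of the features. Without the 5 hubs at 46 Mb, H3K36me3 remained lower, on 30.6% of the hubs. H3K27me3 was then found on 30.6%, and the repressive class held 9 of 36. All 5 omitted hubs carried H3K27me3 and no H3K36me3. Leaving them out could therefore only raise the share of H3K36me3 and lower those of H3K27me3 and the repressive class. Among genes in 1 pair from the same 2 stretches, 42.0% carried H3K36me3 and 29.5% H3K27me3. In the 10 hubs with 5 or more pairs the order was the opposite for H3K27me3, on 2 of them, for the full active class, with 4, and for the repressive class, with 1. With genes chosen by 4 or more distinct interactions, the excess was 2.81 points for H3K27me3 and 4.02 points for the repressive class. The lower share of H3K36me3 among hubs was seen in all 6 alternative settings tried, with differences of -20.2 to -10.7 percentage points. Other minimum numbers of pairs were not among these settings. The 106 genes in 3 pairs lay between hubs and genes in 1 pair. Of them 37.7% carried H3K36me3 and 27.4% H3K27me3, 30.2% were full active and 24.5% repressive. In the 10 hubs with 5 or more pairs H3K36me3 was on 40.0%, nearer to the 46.7% of genes in 1 pair. The excess of H3K27me3 was absent once hubs joined to another hub were left out (-6.26 points).

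**Figure D3:**
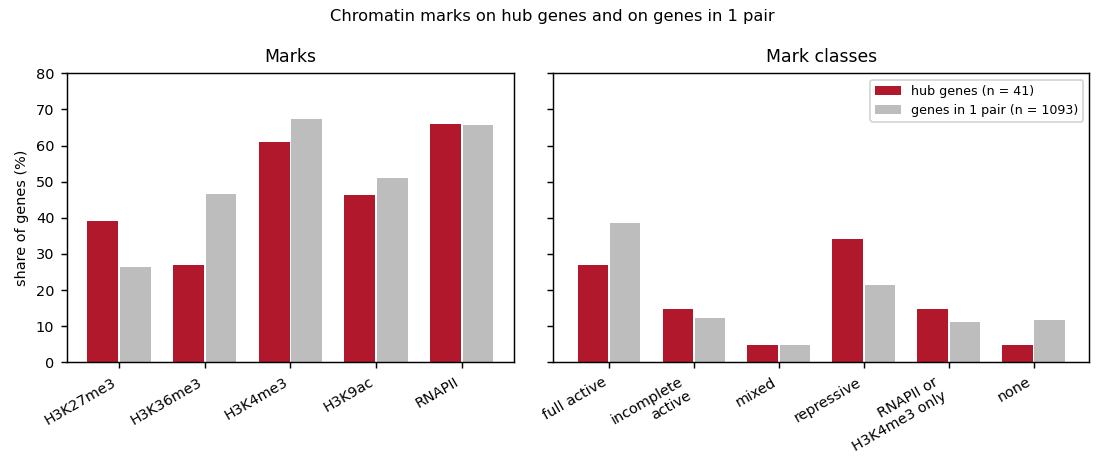
Share of genes carrying each mark (left) and in each mark class (right), in % on the y axis, for the 41 hub genes and the 1093 genes in 1 pair. H3K36me3 is on 26.8% of the hubs against 46.7% of genes in 1 pair, while RNAPII is on 65.9% and 65.8%.

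Within the full active and the repressive class the share of expressed hubs was not below that of genes in 1 pair. In every other class it was below, on 2 or 6 hubs each. All 11 full active hubs were expressed in every replicate, with a median of 2.32 TPM, against 96.8% ± 0.547 (SD, n = 3) of full active genes in 1 pair, with a median of 2.83 TPM. Among repressive genes, 5 of 14 hubs (35.7%) were expressed by the median, against 25.5% of genes in 1 pair. By replicate, 31.0% ± 4.12 of hubs and 27.8% ± 3.44 of genes in 1 pair were expressed in this class (SD, n = 3), a gap no larger than the spread between replicates. In the class with RNAPII or H3K4me3 alone, 27.8% ± 9.62 of the 6 hubs were expressed, against 47.9% ± 2.19 of the genes in 1 pair (SD, n = 3). The 6 incomplete active hubs were expressed in 66.7% of cases, against 79.4% ± 1.88 for genes in 1 pair. In the mixed class 50.0% of the 2 hubs were expressed, against 71.2% ± 5.09. In the unmarked class it was 0% of the 2 hubs, against 21.4% ± 1.61. Classes with 2 or 6 hubs move by many percentage points with 1 gene.

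Most hubs had partners in both expression states. With 63.3% of all genes of the pairs expressed and 4 or more partners each, this is no measure of a difference from other genes. In 31 of the 41 hubs some partners were in the same expression state as the hub and some were not, in 8 all partners were in the same state, and in 2 none was. Of the 18 hubs at 0, 13 were joined to at least 1 expressed gene. Of the 23 expressed hubs, 3 had expressed partners only and 1, TraesCS1A02G395800, had no expressed partner. The 3 were TraesCS1A02G067300, TraesCS1A02G085600 and TraesCS1A02G376500. TraesCS1A02G257700 was the opposite case, at 0 in all replicates with 4 expressed partners between 0.0135 and 3.18 TPM.

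Across pairs, both genes were in the same expression state in 58.6% of the 162 hub pairs, against 63.6% of the 305 pairs in which each gene occurs once. Over all 1038 pairs without a hub the share was 61.6%, which left a smaller difference of -2.92 percentage points. Both genes were expressed in 59 hub pairs (36.4%), against 46.9% of pairs of genes in 1 pair, and neither in 36 hub pairs (22.2%), against 16.7%. In replicates 1, 2 and 3 the share in the same state was 60.5%, 58.0% and 58.0% in hub pairs, against 65.2%, 64.3% and 63.6%. The difference averaged -5.52 ± 0.744 percentage points (SD, n = 3), lower in 3 of 3 replicates (exact two-sided sign-flip permutation test, p = 0.25). A cut at TPM of at least 0.5 or 1 turned the difference to 0.243 and 1.61 points, and giving each hub gene equal weight reduced it to -0.720. Leaving out the 5 hubs at 46 Mb widened it to -8.20 points, with 55.4% of 148 hub pairs in the same state. Those 5 hubs and nearly all of their partners were at 0, so leaving them out was bound to widen the difference. Among pairs over 200 kb apart it was wider, with 46.2% of 39 hub pairs in the same state, against 66.3% of 95 pairs of genes in 1 pair.

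Levels of partner genes differed widely in hub pairs. Over the 52 hub pairs with both genes above 0 in every replicate, the median absolute log2 ratio between partners was 3.10 ± 0.14, against 2.90 ± 0.12 in 127 pairs of genes in 1 pair (SD over 3 replicates, log2(TPM + 0.01)). The difference was 0.20 ± 0.15 on the log2 scale and was turned round by larger pseudocounts. The largest ratio was that of TraesCS1A02G085600 over TraesCS1A02G085800, 89.4 kb apart and both full active, at 8.98 by the median of the replicates (SD 0.56, n = 3), with 2 estimated counts behind the lower gene. Next came TraesCS1A02G415700 and its neighbour TraesCS1A02G415200, 131 kb apart, also both full active, at 0.192 ± 0.0934 and 72.1 ± 9.49 TPM (log2 ratio -8.77). The pair TraesCS1A02G046100 and TraesCS1A02G045700 described above had a log2 ratio of -8.44. At the other extreme, and setting aside the identical values of TraesCS1A02G075300 and TraesCS1A02G075400, TraesCS1A02G592400LC and TraesCS1A02G416000 had 2.69 ± 1.45 and 2.07 ± 0.905 TPM, a log2 ratio of -0.14 (SD 0.44). TraesCS1A02G523400LC and TraesCS1A02G523500LC had a log2 ratio of -0.07 by the median of the replicates, but -3.26 in replicate 3.

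Partners fell in the same class of marks in 58 of 162 hub pairs (35.8%), against 40.0% of pairs of genes in 1 pair and 35.3% of the 1038 pairs without a hub. Without the 5 hubs at 46 Mb the difference from pairs of genes in 1 pair was -9.59 percentage points, wider than the -4.20 of all hub pairs. Both genes were repressive in 25 hub pairs (15.4%), against 9.18%, but in 12 of 148 (8.11%) without the hubs at 46 Mb. Both were full active in 22 hub pairs (13.6%), against 23.3%. Of the 1038 pairs without a hub, 17.5% were both full active and 9.25% both repressive. Seen from the hub, 34 of the 57 partners of repressive hubs were repressive (59.6%), against 43.8% of the partners of repressive genes in 1 pair. Leaving out the 5 hubs at 46 Mb reduced the share for repressive hubs to 14 of 36 links (38.9%). Those 5 hubs and nearly all of their partners were repressive. Leaving them out was therefore bound to lower the shares of like partners, and it cannot assign the likeness to this locus. Of the 50 links of full active hubs 22 led to a full active partner (44.0%), against 51.9%, and 37 to an expressed one (74.0%), against 77.0%.

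**Figure D4:**
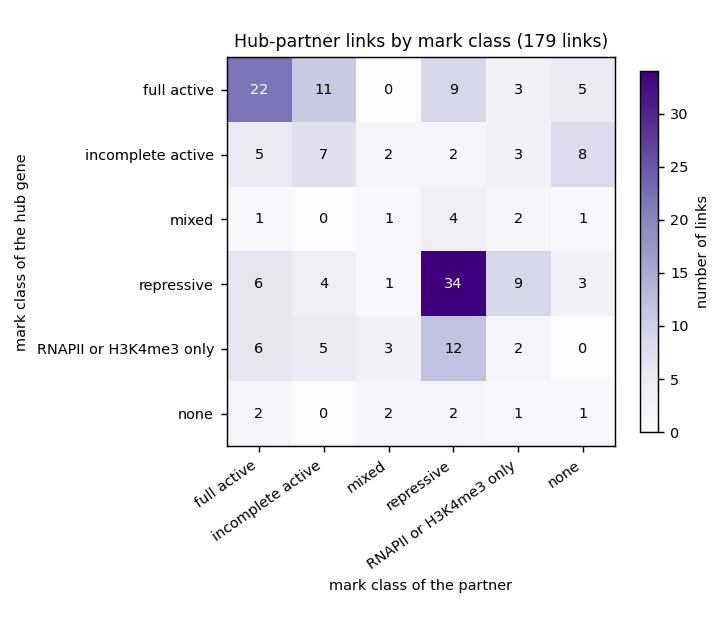
Number of hub-partner links by the mark class of the hub gene (rows) and of its partner (columns), with darker squares for more links and pairs between 2 hubs entered from each side. The square of repressive hubs with repressive partners holds 34 of 179 links and that of full active hubs with full active partners 22.

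Hubs were joined to each other in 17 pairs. These formed 4 groups with 16 hubs, and the other 25 hubs had no hub among their partners. Both genes were in the same expression state in 82.4% of these 17 pairs by the median, and in 78.4% ± 6.79 of them by replicate (SD, n = 3). By the median the share was 58.6% over all 162 hub pairs and 63.6% over pairs in which each gene occurs once. In 9 of the 17 both genes were at 0, and in 9 both were repressive.

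The group at 46 Mb held TraesCS1A02G064300, TraesCS1A02G064400, TraesCS1A02G064500, TraesCS1A02G064600 and TraesCS1A02G091000LC within 109 kb (46201009 to 46310369). They shared 7 of 10 possible pairs. All 5 are on the minus strand and carried H3K27me3 and none of the other features, and all 5 were at 0 in every replicate, where 3 estimated counts would have given between 0.0299 and 0.147 TPM. Their only expressed partner was that of TraesCS1A02G064300, a mixed-class gene 319290 kb away with 1.21 TPM by the median. This was the most uniform group of hubs, in marks and in expression alike.

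The second group joined TraesCS1A02G523200LC, TraesCS1A02G523400LC and TraesCS1A02G523700LC, starting from 547591928, with TraesCS1A02G411200 (571986755 to 571989201), whose 4 partners all lay over 1 Mb away, the farthest at 24395 kb. They shared 5 of 6 possible pairs. TraesCS1A02G411200 carried H3K27me3, H3K4me3 and RNAPII and was at 0 in all replicates. In this group TraesCS1A02G523400LC was the only hub above 0.

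The third group lay within 286 kb (560177974 to 560463748) and joined TraesCS1A02G393700, TraesCS1A02G393900, TraesCS1A02G559300LC and TraesCS1A02G394500 by 3 pairs. All 4 were expressed by the median, from 0.0770 TPM in TraesCS1A02G559300LC to 10.3 TPM in TraesCS1A02G393900, and no hub of this group was full active. TraesCS1A02G394500, a repressive hub, had 0.688, 0.879 and 0.597 TPM. TraesCS1A02G559300LC was at 0 in replicate 3 and rested on 2 estimated counts by the median.

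The fourth group, within 328 kb (574472319 to 574800768), joined the full active hubs TraesCS1A02G415700 and TraesCS1A02G592400LC to the repressive hub TraesCS1A02G592300LC. TraesCS1A02G592400LC had 2.34, 4.28 and 1.44 TPM. TraesCS1A02G592300LC had 0.0647, 0.0341 and 0.0172 TPM, on 4, 2 and 1 estimated counts, so its expression was near the limit of detection. The replicate values of these 2 hubs did not overlap.

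Most partners were close by. The median distance was 98.7 kb in hub pairs, against 97.5 kb in pairs of genes in 1 pair, with 75.9% and 68.9% under 200 kb. In 25 hubs all partners lay within 250 kb. Partners over 1 Mb away occurred in 15 hubs and made up 18.5% of hub pairs, against 15.4% of pairs of genes in 1 pair. For 3 hubs, TraesCS1A02G428200LC, TraesCS1A02G533100LC and TraesCS1A02G411200, every partner was over 1 Mb away. TraesCS1A02G428200LC (481213897 to 481242020) had the longest span of all hubs, 28.1 kb, and 2.32, 3.59 and 1.96 TPM. The partner genes lay on opposite strands in 38.9% of hub pairs, against 42.6% of pairs of genes in 1 pair.

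**Figure D5:**
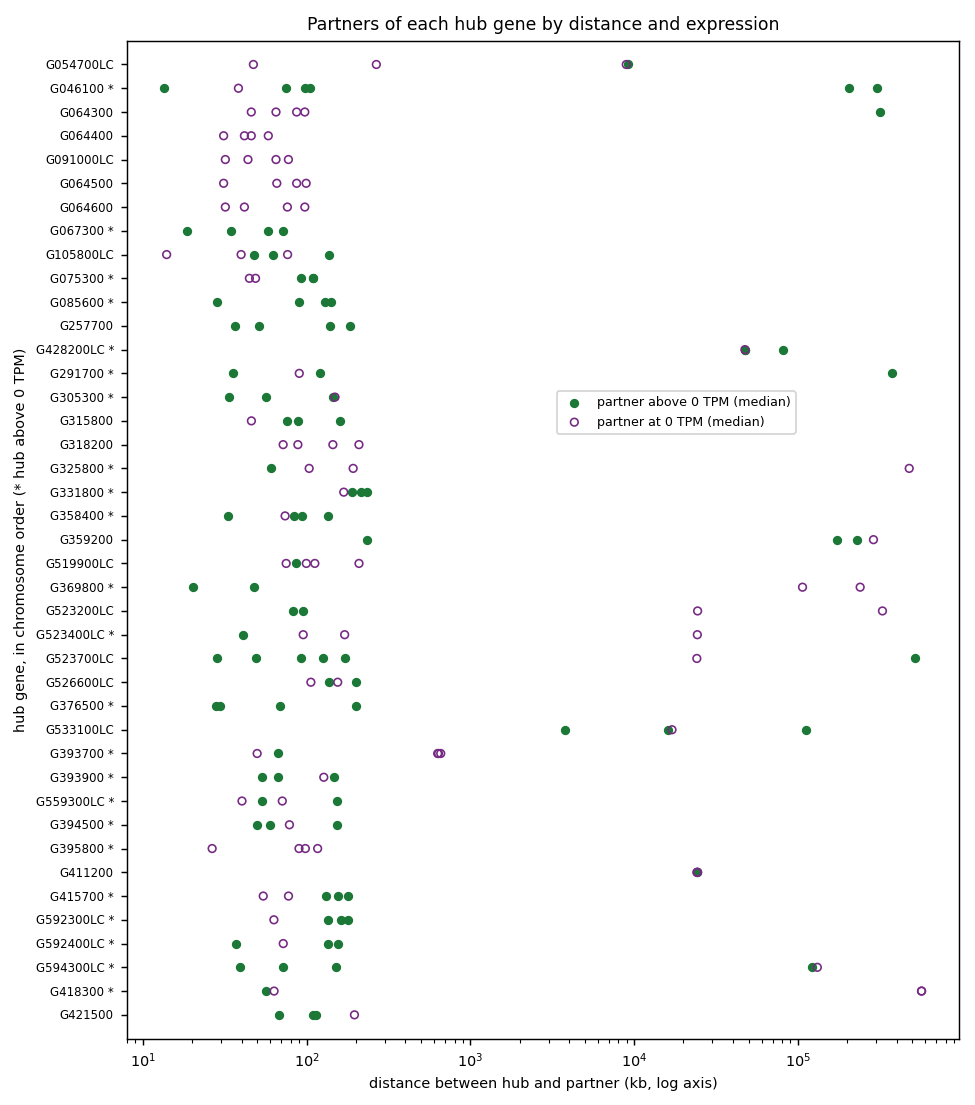
Distance between each hub gene and its partners (x axis, kb, log scale), with filled points for partners above 0 TPM and open points for partners at 0 TPM by the median of the replicates. Hubs run in chromosome order, named without the prefix TraesCS1A02, and a star marks the 23 expressed hubs. Partners within 250 kb make up all points of 25 hubs, and the hubs of the group at 46 Mb stand out as a block of open points.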

How the data were processed

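Per the labels, poly(A) RNA of 3 shoot samples was made into directional libraries, and the submitters' processing notes name Trimmomatic 0.36 and kallisto. The authors quantified transcripts with kallisto (version not given in the sources used here) against IWGSC RefSeq v1.1 gene models. By the paper's methods these were all high-confidence models and the low-confidence ones overlapping a peak of H3K9ac, H3K36me3 or H3K27me3. Low-confidence genes were thus admitted by marks that are compared here. Even so, 1 of 14 low-confidence hubs and 40 of 293 low-confidence genes in 1 pair were listed with no feature. The reason was not tested. For each of 193258 transcripts the deposited tables hold an estimated count without normalization and a TPM value, scaled to each library and to effective length. Reads shared by similar transcripts were divided in fractions, so near-identical gene copies are uncertain. TPM was summed by gene here.

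Gene pairs, marks and positions came from the supplied 1999 of 47678 rows of the study's loop table. Its loops were found with HOMER and its peaks with MACS2, by the paper's methods, and the TPM in that table was not used. By the same methods, the histone mark ChIP-seq came from an earlier data set and the RNAPII ChIP-seq from the study itself. Other rows were not analysed. Repeated rows of a gene pair were merged, and all marks of a gene's intervals joined. The members, mark classes and comparisons were chosen with earlier results of these data known. Named genes are the hubs, the partners of hubs in 6 or 7 pairs, and the 3 hub pairs with the smallest and the 3 with the largest log2 ratio between partners. The alternatives were other cuts for expression, the mean of replicates, leaving out each replicate, high-confidence genes, other numbers of pairs, counts of interactions, all other genes as comparison, pairs over 200 kb, equal weight per gene, other pseudocounts and filters, and the longest interval only. Each result was computed under only some of these. The comparison within the same stretches and the omission of joined hubs were chosen after seeing the data. The labels call the samples bioreplicates without saying what was separate between them, so their spread may be partly technical. The functions were tested on simulated data. Tables were handled with pandas 2.3.3 and numpy 2.4.6 under Python 3.11.15, sign-flip permutations were enumerated in full, and networkx 3.6.1 and matplotlib 3.10.9 were used for groups and plots.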

Additional observations from a re-analysis of the deposited data

How the results depend on the processing

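Differences were taken within each library. The ratio of median TPM (hubs over genes in 1 pair) stayed below 0 on the log2 scale in 12 of 12 alternatives, from -1.63 to -0.09. This ratio was not computed for genes chosen by distinct interactions. The share expressed was lower in hubs in 14 of 16. Its exceptions were 0.169 points with 4 or more distinct interactions and 0.302 without the 5 joined hubs at 46 Mb, and it was largest (-13.9) with the mean of the replicates. The share of pairs in the same state was lower in 16 of 18, with 0.243 at TPM of at least 0.5 and 1.61 at TPM of at least 1. The difference in absolute log2 ratio between partners (0.44 by the median of the replicates) was -0.43 with a pseudocount of 0.1, -0.30 with 1, -0.0119 without a filter, 0.15 with at least 1 TPM in all replicates (7 hub pairs), -0.14 in the same stretches and 0.0518 without joined hubs, and 0.00433 to 0.48 with a replicate left out. Its direction held in 6 of 10.

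For marks (hubs minus genes in 1 pair, percentage points), leaving out joined hubs gave -6.26 for H3K27me3, 12.7 for H3K4me3, 13.1 for H3K9ac, -0.758 for the mixed class and -5.50 for the repressive class. For RNAPII the same omission gave 10.2. Leaving out the 5 hubs at 46 Mb gave 2.11 for H3K4me3, 1.91 for H3K9ac and 9.22 for RNAPII. These 5 hubs carried none of these features, so leaving them out could only raise the values. With high-confidence genes only the values were 0.431 for H3K9ac, -1.63 for RNAPII, -3.47 for RNAPII or H3K4me3 alone and 0.332 for pairs in the same class. The same stretches gave 1.19 for pairs in the same class and -1.56 for the mixed class, which was -1.21 with distinct interactions. H3K36me3, the full active, incomplete active and unmarked classes kept their direction in 6 of 6. The cause of these changes was not tested, and 41 genes, 5 of them at 1 locus, limit every share.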
